A study of Sus scrofa with 5 samples.

Results

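The genes described here are 38 genes known to be induced by type I interferon, read at once in the pig and in the human transcripts of a pig kidney transplanted into a human recipient. They were taken from a written list of symbols, chosen with earlier results of these data known. The symbols were looked up in a table of pig-genome (Sscrofa11) counts and a table of human-genome (hg38) counts. The pig table held 34 of the 38 among 15229 symbols, and the human table held all 38 among 59229 symbols. IFIT3, IFI16, XAF1 and SP100 had no row of that name in the pig table. Each of the 5 bulk RNA sequencing libraries, made from kidney core biopsies after depletion of ribosomal RNA, had a column in both tables. The control group was 2 libraries of kidney labelled as control at 0 h, and the xenograft group was 1 biopsy each at 12, 24 and 48 h after transplantation. The labels used here give no pig genotype or drug treatment, and nothing in them says that the controls came from separate animals. The biopsies stand for a single transplant, so the p-values below measure the spread between these libraries. The cell type label reads as dissociated cells, whereas the protocol describes homogenised biopsy cores.

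Type I interferons are secreted by cells that sense foreign or misplaced nucleic acid, and they act on nearly every nucleated cell through the receptor pair IFNAR1 and IFNAR2. The receptor activates the kinases JAK1 and TYK2, and the signal ends in the ISGF3 complex, which holds STAT2 and IRF9 and turns on interferon-induced genes. Many of those genes block viruses, edit or degrade RNA, or attach the ubiquitin-like protein ISG15 to other proteins, and several also respond to type II interferon. In a transplanted organ the same genes can be read from the donor tissue and from the recipient's infiltrating cells.

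Library totals lay between 56126783 and 71106149 counts in the pig table and between 13384985 and 19734584 in the human table. For every 100 pig-table counts there were 22.8 and 18.8 human-table counts even in the controls, which hold no recipient tissue, and 29.0 to 33.4 in the biopsies. Human-table counts were therefore read against a background, the control ratio of human to pig counts of the same gene multiplied by its pig counts in the biopsy. The 8 kidney tubule markers followed that background, with a median of 1.07, 1.04 and 1.06 times the predicted count at 12, 24 and 48 h. They were present in the pig table of every library, with a summed level of 9692 and 7783 CPM in the controls and 7013 to 8949 CPM in the biopsies (counts per 1000000 counts of that table in the library), or 10693 and 10569 against 5864 to 8157 on the TMM scale described next. The mitochondrial share of the pig table was 21.9% and 33.4% in the controls and 11.8% to 14.5% after transplantation. Trimmed-mean (TMM) scaling moved the median log2 change of all pig genes from 0.51 on plain CPM to 0.03, a shift of 0.48, and graft changes below are on the TMM scale.

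In the pig transcripts, the induction was carried by ISG15 and the enzymes that attach or remove it, by both MX genes, and by PARP14, BST2, IFI6, IFI44, IFIT5 and ISG20. Of the 34 genes in the pig table, 13 were higher in the biopsies than in the controls and 0 were lower (edgeR's quasi-likelihood test, Benjamini-Hochberg adjusted p under 0.05 over 12617 genes). Of all genes tested, 37.5% were called, 18.5% higher and 19.0% lower. The 13 of 34 is more than the share of all genes that rose, and no member fell, although slightly more of all genes fell than rose. Because the list was chosen with earlier results of these data known, this comparison is no independent support. At an unadjusted p under 0.05 the counts were 17 higher and 2 lower, and DESeq2 called 16 higher and 0 lower. The median log2 change was 0.59 for the 34 genes and 0.03 for all genes tested, and 30 of the 34 values were above 0. The number of calls depended on the control pair, with 7 left without control replicate 1 and 3 left without control replicate 2. ISG15, MX1 and PARP14 were called whichever library was left out. The absence of lower members depended on the 48 h biopsy, without which OAS2 and LGALS3BP were called lower. In bulk tissue, fewer cells of a type and less RNA per cell cannot be told apart, and this holds for every level below.

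**Figure D1:**
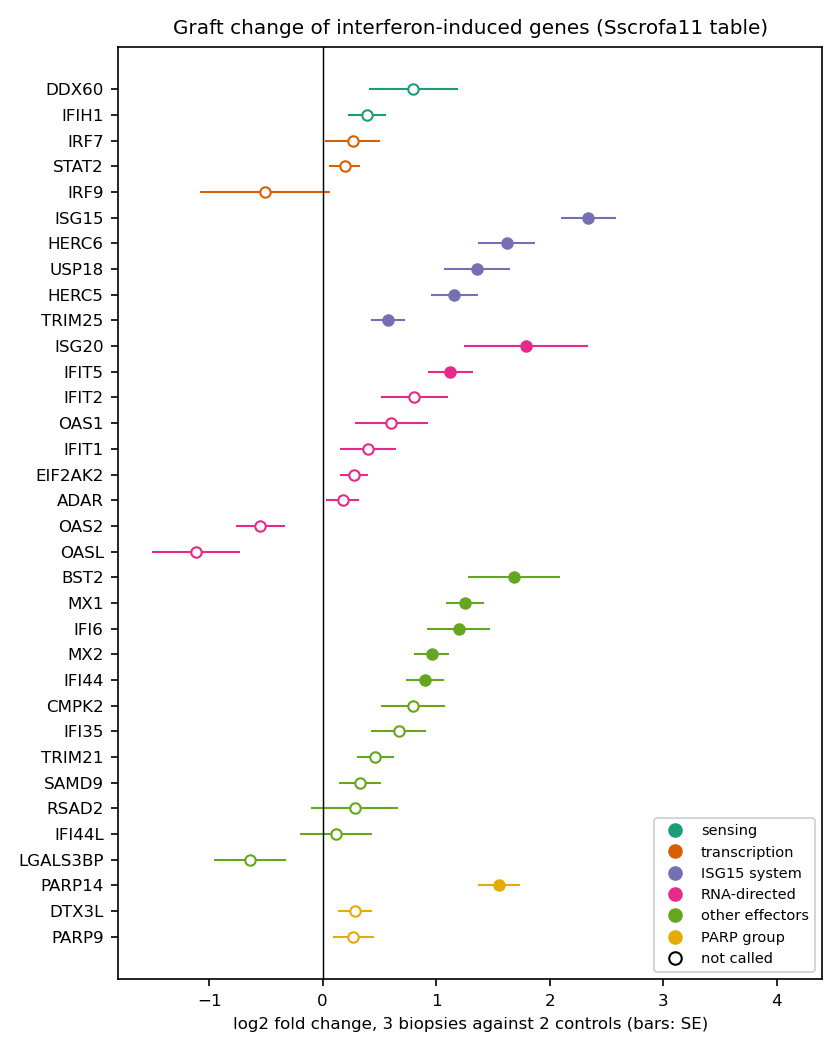
Log2 fold change of the 34 members in the pig table, 3 biopsies against 2 controls, with bars of 1 standard error; filled points passed the test, open points did not, and colours give the role. All 5 genes of the ISG15 system are filled, whereas the sensing and transcription genes are open and OASL lies lowest at -1.12.

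ISG15, an ubiquitin-like protein that is both secreted and attached to other proteins, had the largest change. Its graft level was 4.02 and 4.41 TMM-scaled CPM in the controls against 27.6, 17.1 and 19.6 at 12, 24 and 48 h. Every biopsy was far above both controls, with the 12 h biopsy highest. The log2 change was 2.34 ± 0.24 (SE, 2 controls and 3 biopsies), a 5.07-fold rise (edgeR adjusted p = 0.000946). HERC6, the ligase that takes the place of HERC5 for ISG15 in some mammals, went from 16.7 and 13.9 to 34.1, 48.4 and 59.5 (log2 change 1.62 ± 0.25, edgeR adjusted p = 0.00368). HERC5, the ISG15 ligase of human cells, went from 5.44 and 4.79 to 11.7, 9.49 and 13.3 (1.16 ± 0.21, edgeR adjusted p = 0.00584). HERC6 was higher at each later biopsy, whereas HERC5 was lowest at 24 h.

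USP18, the protease that removes ISG15 and also dampens signalling at IFNAR2, had graft levels of 1.87 and 1.85 in the controls against 4.47, 3.83 and 6.12 in the biopsies (log2 change 1.36 ± 0.29, edgeR adjusted p = 0.0117). TRIM25, which ubiquitinates the RNA sensor RIG-I and can also transfer ISG15, had 38.7 and 32.3 in the controls against 46.5, 53.9 and 58.8 in the biopsies (0.57 ± 0.15, edgeR adjusted p = 0.0237). All 5 genes of the ISG15 system therefore rose in the pig transcripts, where 18.5% of all genes did, with a median log2 change of 1.36. All 5 had every biopsy above both controls, as 31.6% of all genes did. Leaving out control replicate 1 ended the calls of USP18 (edgeR adjusted p = 0.0945) and TRIM25 (0.0775). Leaving out control replicate 2 ended those of USP18 (0.111), TRIM25 (0.202), HERC5 (0.0785) and HERC6 (0.0588), and TRIM25 was also lost without the 24 h biopsy (0.0652).

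MX1 and MX2 encode dynamin-like GTPases that trap incoming virus. MX1 went from 11.1 and 9.82 TMM-scaled CPM to 27.8, 21.1 and 26.2 (log2 change 1.26 ± 0.17, edgeR adjusted p = 0.00215). MX2 went from 13.5 and 11.9 to 26.7, 21.8 and 26.0 (0.96 ± 0.15, edgeR adjusted p = 0.00395, and 0.0626 without control replicate 2). Both were lowest of the biopsies at 24 h and stayed above both controls there. BST2, the membrane tether also called tetherin, followed another course, with 9.79 and 9.41 in the controls against 18.7, 26.7 and 47.7 at 12, 24 and 48 h. Its log2 change was 1.69 ± 0.40 (edgeR adjusted p = 0.0204, but 0.114 without control replicate 1 and 0.136 without control replicate 2).

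IFI6, a small protein of mitochondrial and endoplasmic reticulum membranes, had 31.8 and 29.6 in the controls against 54.5, 59.2 and 99.0 in the biopsies (log2 change 1.20 ± 0.28, edgeR adjusted p = 0.0164). IFI44, a cytoplasmic interferon-induced protein, had 12.6 and 11.7 in the controls against 20.7, 21.0 and 26.8 in the biopsies (0.90 ± 0.17, edgeR adjusted p = 0.00662). Both were highest at 48 h and had every biopsy above both controls, as 31.6% of all genes did. Neither call held with control replicate 1 or control replicate 2 left out. Of the 12 genes in this group of other effectors, these 5 rose, where 18.5% of all genes did. CMPK2 (0.80), IFI35 (0.67), TRIM21 (0.47), SAMD9 (0.33), RSAD2 (0.28), IFI44L (0.12) and LGALS3BP (-0.64) did not pass the test, and CMPK2, IFI35 and TRIM21 passed it in DESeq2. LGALS3BP passed as lower without the 48 h biopsy (-0.995, edgeR adjusted p = 0.00729).

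Of the genes that act on RNA, 2 of 9 rose, a share near the 18.5% of all genes that did. IFIT5, which binds the ends of single-stranded RNA, had 35.0 and 31.4 in the controls against 88.1, 56.8 and 73.4 in the biopsies (log2 change 1.13 ± 0.20, edgeR adjusted p = 0.00556, and 0.0770 without control replicate 2). ISG20, an exonuclease of single-stranded RNA, was rare, with 3 and 5 pig counts in the controls against 15, 21 and 18 in the biopsies. Its log2 change of 1.79 ± 0.55 (edgeR adjusted p = 0.0388) was lost with either control (0.253 and 0.136), the 24 h biopsy (0.0861) or the 48 h biopsy (0.0550) left out, and in DESeq2 (0.123). The synthetases OAS1 and OAS2, which make the 2-5A signal that switches on RNase L, did not pass the test, nor did the inactive relative OASL. OAS1 had a log2 change of 0.61. OAS2 had -0.55, with 36.7 and 40.7 in the controls against 21.7, 23.2 and 34.7 in the biopsies. Without the 48 h biopsy OAS2 passed as lower (-0.79, edgeR adjusted p = 0.00464). OASL had -1.12 on 31 and 21 pig counts in the controls against 14, 17 and 14.

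Among the rest of that group, IFIT1 (0.40) and IFIT2 (0.81), which bind foreign RNA, EIF2AK2 (0.28), the kinase PKR that shuts down translation, and ADAR (0.18), the enzyme that edits adenosine in double-stranded RNA, did not pass the test. IFIT2 passed it in DESeq2. PARP14, an ADP-ribosyltransferase, went from 8.05 and 5.88 to 20.8, 18.5 and 22.4, with no overlap (log2 change 1.55 ± 0.19, a 2.94-fold rise, edgeR adjusted p = 0.00154). Its relative PARP9 (0.27) and DTX3L (0.28), the ubiquitin ligase that works as a pair with PARP9, did not pass. Neither did the sensors IFIH1 (0.39), which is MDA5, and DDX60 (0.80), a helicase reported to aid them.

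None of the 3 transcription factors passed the test in the pig transcripts. STAT2, a subunit of ISGF3, had 90.6 and 81.9 in the controls against 109, 89.3 and 98.7 in the biopsies, a log2 change of 0.19 (edgeR adjusted p = 0.286). IRF7, the amplifier of interferon transcription, had 0.26 (0.413). IRF9 had -0.51 (0.512) on 10 and 23 pig counts in the controls against 22, 11 and 12 in the biopsies. With single libraries left out IRF9 ranged from -1.06 to 0.33, so its direction was not determined at this depth. On the TMM scale 21 of the 34 genes had all biopsies above both controls, where 31.6% of all genes did, 3 had them below (OAS2, OASL and LGALS3BP, where 30.5% did) and 10 overlapped. On plain CPM, 28 were above (54.3% of all genes) and OASL alone was below (12.3%), while OAS2 and LGALS3BP overlapped.

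**Figure D2:**
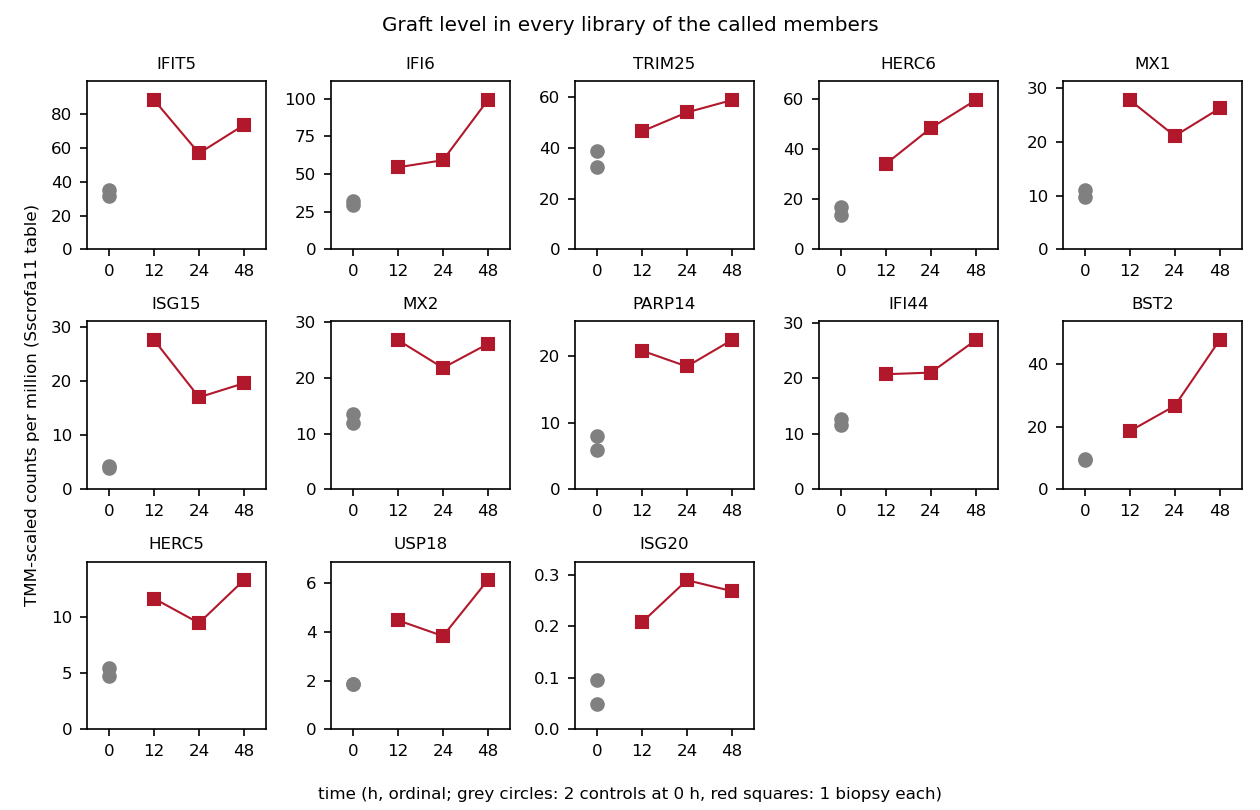
TMM-scaled CPM in the pig table for the 13 members that rose, in 2 controls at 0 h (circles) and 1 biopsy at each later time (squares joined by a line), with an ordinal time axis and vertical axes that start at 0 and differ between genes. ISG15 is highest at 12 h, whereas BST2 climbs to 47.7 and HERC6 to 59.5 at 48 h.

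The order of the biopsies differed between genes of the pig table. The TMM-scaled level was highest at 48 h in 20 of the 34 genes, at 12 h in 12 and at 24 h in 2, where 35.2% of all genes were highest at 48 h. Within the xenograft, 4 of 34 genes rose per 24 h and 0 fell (edgeR's quasi-likelihood test). The slope comes from the biopsies, but the fit also holds the controls and has 2 residual degrees of freedom. Part of its spread is that of the control pair, so these p-values do not rest on the biopsies alone. Of all genes 4.34% were called, 3.35% rising and 0.983% falling. BST2 gained 0.90 ± 0.12 on the log2 scale per 24 h (edgeR adjusted p = 0.00525), LGALS3BP, a secreted galectin-binding glycoprotein, 0.76 ± 0.13 (0.013), IFI44L 0.75 ± 0.13 (0.0154) and IFI6 0.60 ± 0.12 (0.0263). IFI44L had 19.3 and 18.9 in the controls against 13.4, 19.3 and 29.9 in the biopsies, and LGALS3BP had 39.1 and 43.5 in the controls against 17.0, 24.6 and 38.2. Both thus started below the controls at 12 h, and LGALS3BP stayed just under them at 48 h. Without the 48 h biopsy the slopes of BST2 (1.04, edgeR adjusted p = 0.0789), IFI44L (1.06, 0.0681) and IFI6 (0.24, 0.738) did not pass, nor did that of IFI6 without control replicate 1 (0.60, 0.0505). At an unadjusted p under 0.05, 12 genes rose and 1 fell.

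Each biopsy was also set against the controls, with the lone biopsy assumed to vary like the control pair (1 residual degree of freedom). Variation between biopsies of 1 time is not estimated there, so these calls have no replicate check. At 12 h, 18 of the 34 genes were higher and 4 lower, where 56.7% of all genes were called, 28.5% higher and 28.2% lower. IFI44L, LGALS3BP, OAS2 and OASL were the 4 lower genes. At 24 h 16 were higher and 2 lower, against 47.4% of all genes, 24.1% higher and 23.3% lower. At 48 h 24 were higher and 0 lower, against 51.5%, 26.8% higher and 24.7% lower, and 1 was lower at an unadjusted p under 0.05. The 3 counts share their controls. Some leukocyte markers moved along in the pig table. The 4 general markers summed to 58.5 and 59.5 TMM-scaled CPM in the controls against 105, 89.6 and 144 in the biopsies, where CD53, LCP1 and CORO1A rose and PTPRC did not pass the test (-0.29). Of 6 lymphocyte markers tested in the pig table, CD3E, CD3D, CD2 and GNLY fell and NKG7 and CD79A rose. Of the neutrophil and monocyte markers 4 were tested, of which S100A8, CD14 and VCAN rose. The 5 endothelial markers summed to 357 and 274 TMM-scaled CPM in the controls against 653, 708 and 684 in the biopsies. PECAM1 and CDH5 rose, while VWF (1.33), EMCN (-0.0073) and KDR (-0.14) did not pass the test. The part of these cell types in the changes was not tested.

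In the human table nearly the whole list was above the controls, in a fit that does not subtract the predicted background. Of the 38 genes, 37 were tested and 33 were higher in the biopsies, 0 lower (edgeR's quasi-likelihood test, adjusted over 18398 genes). Of all genes tested 35.1% were called and 19.3% were higher. At an unadjusted p under 0.05, 35 were higher and 0 lower, and DESeq2 called 34 and 0. The median log2 change was 3.13 for the 37 and 0.05 for all genes. It was also 3.13 with the genes at 0 in both controls set at their lower bound. A gene near 0 in the controls passes the filter through the biopsies alone, so neither the count nor the median is independent of that filter. Nor is every call a human rise, since background follows the graft. IFIT5 and HERC6 were among the 33. At 12, 24 and 48 h IFIT5 had 1.07, 1.004 and 1.18 times its predicted background, and HERC6 1.81, 0.947 and 1.55 times. Without control replicate 1 the count was 23, and without control replicate 2 it was 18. IFIH1 (0.81, edgeR adjusted p = 0.0771), RSAD2 (2.74, 0.0662), SAMD9 (0.27, 0.32) and LGALS3BP (0.53, 0.626) did not pass, and USP18 was too rare to test, with 0 and 0 human counts in the controls against 5, 1 and 15 in the biopsies. Human CPM, here always human counts per 1000000 pig-table counts of the same library, was above both controls in all 3 biopsies for 37 of the 38 genes, LGALS3BP being the exception, where 53.6% of all genes were.

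The 4 genes with no pig row can be described from the human table alone. IFI16, a sensor of DNA, had 0 human counts in both controls and 435, 332 and 880 in the biopsies. That is 6.88, 5.02 and 15.7 human CPM, and at least 314-, 229- and 716-fold higher than 3 counts over the control pair. XAF1, a pro-apoptotic protein, also had 0 in both controls and 113, 72 and 238 in the biopsies (at least 81.6-, 49.7- and 194-fold higher). Both genes were thus undetected in pig-only tissue, where a count of 0 over the pair allows up to 3 counts or 0.0219 human CPM. IFIT3, which stabilises IFIT1 on RNA, had 0.182 and 0.113 human CPM in the controls against 7.70, 4.65 and 19.4 in the biopsies (log2 change 5.33 ± 0.77, edgeR adjusted p = 0.00342). SP100, the scaffold of a nuclear body that restricts DNA viruses, had 0.106 and 0.0703 in the controls against 3.32, 2.22 and 6.97 in the biopsies (4.72 ± 0.56, edgeR adjusted p = 0.000341). All 4 were lowest of the biopsies at 24 h and highest at 48 h.

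For the 34 genes in both tables the question was whether human counts rose beyond what the pig counts predict. The human to pig ratio was higher in the biopsies than in the controls for 19 of the 34 and lower for 0 (edgeR's quasi-likelihood test with library and table as terms). Of 12723 genes 19.7% were called, 19.5% higher and 0.220% lower. With each table scaled to its own total and by TMM, the calls of all genes went from 2480 higher and 28 lower to 1200 and 958, while 20 of the 34 members were higher. At an unadjusted p under 0.05, 28 members were higher and 0 lower. The median log2 change of the ratio was 2.78 for the members, or 2.68 with genes at 0 in both controls set at their bound, and 0.25 for all genes tested. This fit rests on the control pair: without either control 0 members and 1 gene in all were called. Without the 12 h biopsy 7 members were called, and without the 24 or 48 h biopsy 24 and 26.

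IFIT2 had one of the largest shifts of the ratio. It had 3 and 2 human counts in the controls against 369, 226 and 711 in the biopsies, with a log2 change of the ratio of 6.14 ± 0.62 (edgeR adjusted p = 0.0112). OAS1 had 13 and 6 human counts in the controls against 369, 247 and 538 in the biopsies (4.39 ± 0.37, edgeR adjusted p = 0.0084). OAS2 had 36 and 28 in the controls against 299, 258 and 749 in the biopsies (3.86 ± 0.42, edgeR adjusted p = 0.0122). In each the lowest biopsy was many times the higher control, although neither OAS gene had passed the test in the pig table.

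EIF2AK2 had 2 and 4 human counts in the controls against 112, 66 and 159 in the biopsies (log2 change of the ratio 4.52 ± 0.69, edgeR adjusted p = 0.0205). IFIT1 had 10 and 5 in the controls against 65, 55 and 185 in the biopsies (2.93 ± 0.60, edgeR adjusted p = 0.0314). ADAR had more background, with 183 and 123 in the controls against 816, 630 and 1381 in the biopsies (2.06 ± 0.34, edgeR adjusted p = 0.0227). OASL had 0 in both controls and 18, 20 and 44 in the biopsies (edgeR adjusted p = 0.0234), at least 13.0-, 13.8- and 35.8-fold higher in human CPM. Of the 9 RNA-directed genes, 7 thus had a higher ratio (19.5% of all genes), against 2 that rose in the pig table (18.5% of all genes). The exceptions were IFIT5 (0.13, edgeR adjusted p = 0.439) and ISG20, the same 2 that had risen there. ISG20 had a log2 change of the ratio of 4.33 ± 1.58 (edgeR adjusted p = 0.104) that rests on 1 and 0 human counts in the controls against 47, 31 and 99 in the biopsies, so the missed threshold does not show an unchanged ratio.

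All 3 genes of the PARP group had a higher ratio, where 19.5% of all genes did. PARP14 had 16 and 14 human counts in the controls against 665, 436 and 959 in the biopsies (log2 change of the ratio 3.56 ± 0.45, edgeR adjusted p = 0.015). PARP9 had 38 and 48 in the controls against 427, 284 and 731 in the biopsies (2.79 ± 0.48, edgeR adjusted p = 0.0246). DTX3L, which shares a promoter region with PARP9, had 3 and 6 in the controls against 328, 243 and 533 in the biopsies (5.63 ± 0.61, edgeR adjusted p = 0.0122). PARP9 and DTX3L overlap each other in the annotation, and the strand setting of the counting was not given in the sources used here. Of the transcription factors, STAT2 went from 688 and 512 human counts to 1618, 1265 and 1624 (0.80 ± 0.11, edgeR adjusted p = 0.0181). IRF9 had 0 in both controls and 21, 13 and 22 in the biopsies (edgeR adjusted p = 0.0227), at least 15.2-, 8.97- and 17.9-fold higher in human CPM. IRF7 (2.36, edgeR adjusted p = 0.0749) did not pass.

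Among the remaining effectors and sensors, DDX60 had 8 and 2 human counts in the controls against 108, 58 and 224 in the biopsies (log2 change of the ratio 3.46 ± 0.54, edgeR adjusted p = 0.0213). TRIM21, a cytosolic antibody receptor and ubiquitin ligase, had 20 and 9 in the controls against 191, 149 and 269 in the biopsies (2.98 ± 0.39, edgeR adjusted p = 0.0157). IFI44L had 29 and 17 in the controls against 101, 130 and 336 in the biopsies (2.50 ± 0.38, edgeR adjusted p = 0.0204). In human CPM these 3 genes had every biopsy above both controls, as 53.6% of all genes did. IFI6 went from 44 and 31 to 205, 169 and 468 (1.31 ± 0.33, edgeR adjusted p = 0.0469). IFI44 had 3 and 0 human counts in the controls against 178, 109 and 331 in the biopsies (edgeR adjusted p = 0.0239). BST2 had 0 in both controls and 321, 209 and 514 in the biopsies (0.0242), at least 232-, 144- and 418-fold higher in human CPM. BST2, IFI44 and IFI6 thus passed the test in the pig table and in the ratio, as did PARP14 and TRIM25.

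Of the ISG15 system, whose 5 genes all rose in the pig table, 1 of 5 had a higher ratio, a share near the 19.5% of all genes that did. That gene was TRIM25, with 82 and 55 human counts in the controls against 317, 265 and 455 in the biopsies (1.41 ± 0.27, edgeR adjusted p = 0.0283). ISG15 had 2 and 1 human counts in the controls against 65, 52 and 188 in the biopsies (3.21 ± 1.74, edgeR adjusted p = 0.228, on 3 control counts). USP18, at 0 in both controls, had 5, 1 and 15 in the biopsies (edgeR adjusted p = 0.249). HERC5 had 6 and 4 in the controls against 56, 34 and 116 in the biopsies (2.18, edgeR adjusted p = 0.0769). HERC6 had 23 and 18 in the controls against 106, 79 and 147 in the biopsies (0.48, edgeR adjusted p = 0.401). Human counts of ISG15 and HERC5 were above the controls in every biopsy, so a missed threshold here does not show that their ratio was unchanged. Over both fits, 8 genes passed in the pig table only (ISG15, USP18, HERC5, HERC6, MX1, MX2, IFIT5 and ISG20), 14 in the ratio only, 5 in both and 7 in neither. These classes are not fixed. Without the 48 h biopsy the ratios of ISG15, HERC5 and MX2 passed too (edgeR adjusted p = 0.0370, 0.0348 and 0.0403). Without the 24 h biopsy those of HERC5, MX2 and ISG20 did (0.0431, 0.0373 and 0.0479). Without the 12 h biopsy 12 ratio calls were lost. A graft rise also raises the denominator of the ratio. MX1 had 29 and 9 human counts in the controls against 150, 116 and 375 in the biopsies.

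Per gene and time, the background could be predicted for 33 of the 34 genes, ISG20 having too few control counts. Human counts were above the predictions from both controls for 32, 31 and 33 of the 33 genes at 12, 24 and 48 h. Of all 12622 genes with a prediction, 71.5%, 67.8% and 76.8% were, so the size of the excess says more than its sign. Among genes with at least 10 predicted counts, the members' median was 2.96, 2.59 and 6.58 times the prediction (22, 22 and 23 genes). The same median over all genes was 1.16, 1.12 and 1.21. IFIT2 stood at 82.2, 46.7 and 100.1 times its prediction and DTX3L at 44.5, 36.4 and 79.3. At the other end, IFIT5 stood at 1.07, 1.004 and 1.18 times, SAMD9 at 1.17, 1.11 and 1.28, and HERC6 at 1.81, 0.947 and 1.55. IFIT5 and SAMD9 had control ratios of 21.8% and 24.1%, so much of their human count was matched by the controls. HERC6 had a control ratio of 2.38%.

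**Figure D3:**
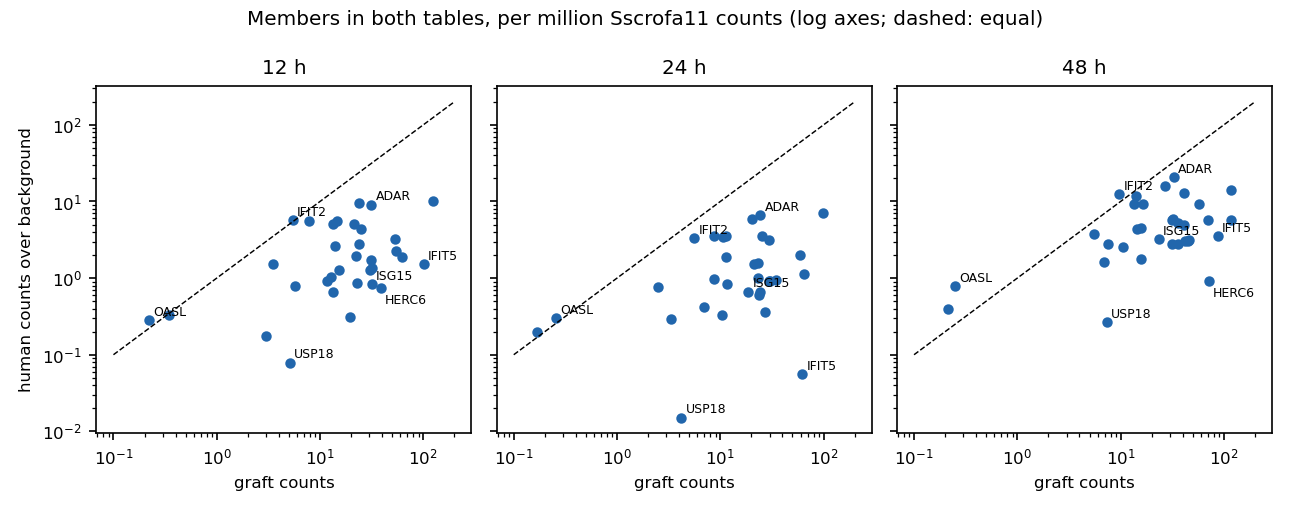
Human counts over the predicted background against pig counts, both as counts per 1000000 pig-table counts of the same library, for members with a control ratio at 12, 24 and 48 h, on log axes with a dashed line of equality; HERC6 at 24 h is below 0 and not drawn. Most points lie under the line, OASL lies above it at all 3 times, and IFIT5 and HERC6 lie far below.

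For most members the larger part of the counts was of the graft. The human share of a gene was taken as the human counts over background divided by those plus the pig counts, with no correction for transcript length. Its median over the 33 genes was 7.55%, 6.63% and 15.3% at 12, 24 and 48 h, against 2.84%, 2.22% and 3.94% over all genes. It was under 20% at all 3 times for 20 of the 33. Human counts over background exceeded pig counts for 2, 2 and 3 members, where 1.62%, 1.29% and 1.92% of all genes did. OASL did so at each time, with shares of 56.3%, 54.2% and 75.9%, on at most 17 pig counts in a biopsy. IRF9 had 48.8%, 54.2% and 64.7% on at most 22 pig counts in a biopsy. IFIT2 had 51.5%, 37.3% and 56.4%, with 5.76, 3.34 and 12.5 human CPM over background beside 5.44, 5.61 and 9.69 pig CPM.

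Below these came a set of members with human shares of 35.7% to 46.0% at 48 h. PARP9 had human shares of 27.4%, 24.4% and 46.0% at 12, 24 and 48 h, DTX3L 27.7%, 23.7% and 40.8%, DDX60 30.7%, 23.4% and 40.4%, ADAR 22.5%, 21.2% and 38.7%, and PARP14 28.8%, 22.3% and 37.5%. OAS1 had 41.7%, 28.9% and 35.7% and was one of the few members not highest at 48 h. The classical reporters of the response lay lower, with ISG15 at 2.55%, 3.44% and 12.0% and MX1 at 4.07%, 4.15% and 15.3%. USP18 (1.52%, 0.36% and 3.52%), IFIT5 (1.50%, 0.09% and 3.85%) and HERC6 (1.89%, 0% and 1.29%) were lowest at 48 h, the 0% standing for human counts below the prediction. A leak of human reads into the pig table was also assumed, at the rate of pig reads into the human table. The graft log2 changes, here on plain CPM, would then be lower by at most 0.07, with 0 members changing sign. ISG20, with too few control counts for a ratio, was not covered. OASL, IRF9, USP18 and BST2 had a control ratio of 0, so their assumed leak was 0 and the calculation could not test them.

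**Figure D4:**
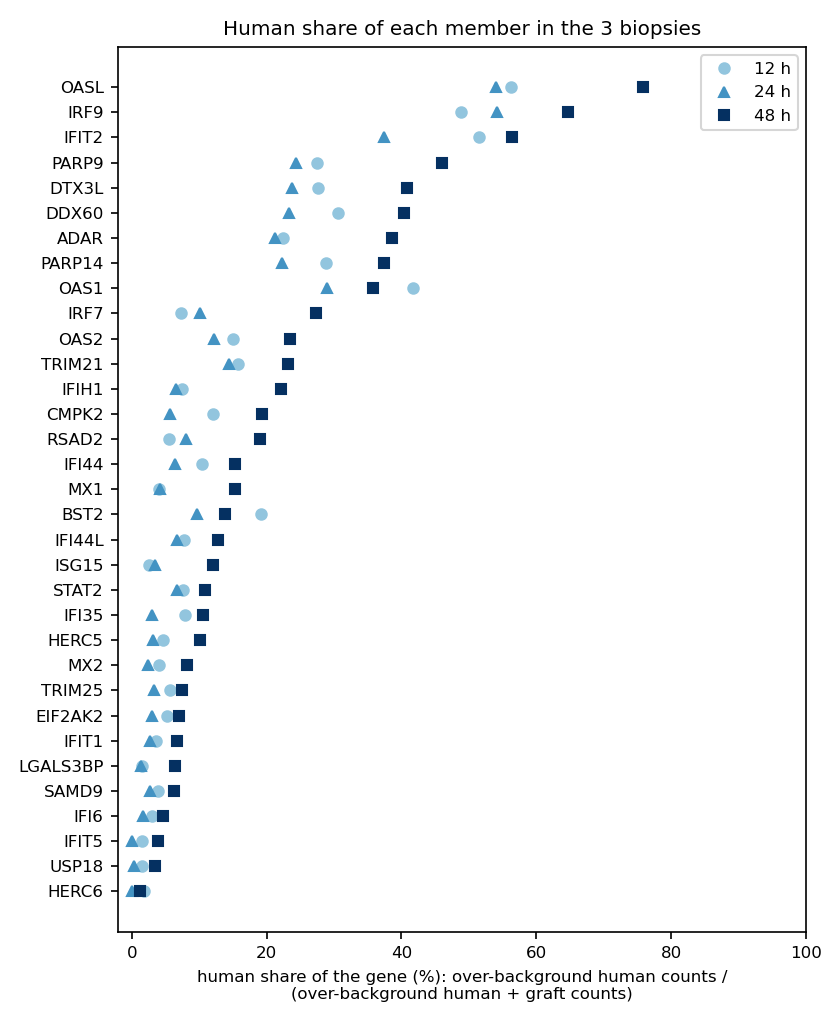
Human share of each of 33 members in the biopsies at 12 h (circles), 24 h (triangles) and 48 h (squares), sorted by the 48 h value. OASL, IRF9 and IFIT2 are above 50% at 48 h, while the ISG15-system genes USP18 and HERC6 stay under 4%.

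Over time the human counts dipped at 24 h and were highest at 48 h. Human CPM was lowest of the biopsies at 24 h in 34 of the 38 genes and highest at 48 h in 36, where 48.8% and 53.1% of all genes were. Among the 32 genes whose counts over background were above 0 at each time, 27 were lower at 24 h than at 12 h, with a median ratio of 0.621. Their median at 48 h was 2.36 times that at 12 h, with a range of 1.18 to 10.1 and 22 genes above 2-fold. LGALS3BP was 10.1-fold and RSAD2, the radical SAM enzyme viperin, 9.22-fold higher at 48 h than at 12 h, followed by IFIH1 (4.35), MX1 (4.21), IFI44L (4.11) and ISG15 (3.87).

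Within the xenograft 3 of 37 members rose per 24 h in the human table and 0 fell (edgeR's quasi-likelihood test). Of all genes 1.12% were called, 0.924% rising and 0.196% falling. As in the pig table, part of the spread in this fit is that of the control pair. RSAD2, with 16, 25 and 101 human counts in the biopsies and 5 and 4 in the controls, gained 1.85 ± 0.32 on the log2 scale (edgeR adjusted p = 0.018). LGALS3BP, with 47, 63 and 234 in the biopsies and 50 and 52 in the controls, gained 1.64 ± 0.25 (edgeR adjusted p = 0.00805), and IFI44L gained 1.22 ± 0.23 (0.0289). In human CPM the 12 h level of LGALS3BP (0.743) lay between those of the controls (0.759 and 0.731). Its log2 change at 12 h was -0.81 in the fit of each time, which scales the human table by TMM. The 12 h count was 1.73 times its predicted background. At 48 h the level was above both controls. At an unadjusted p under 0.05, 26 members rose, and 0 members passed the adjusted test when either control or the 48 h biopsy was dropped. Without the 48 h biopsy, the slopes of RSAD2, LGALS3BP and IFI44L were 1.43, 0.995 and 0.88 and did not pass. The residual spread in that fit came from the control pair alone.

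Human leukocyte markers moved with these counts. The 4 leukocyte markers summed to 13.9 and 11.4 human CPM in the controls against 184, 120 and 319 in the biopsies, so that the 24 h biopsy was 0.654 and the 48 h biopsy 1.74 times the 12 h biopsy. The 8 neutrophil and monocyte markers had 0.895 and 0.577 in the controls against 427, 281 and 460 in the biopsies (0.658 and 1.08 times the 12 h value). The 7 lymphocyte markers had 0.0759 and 0.0281 in the controls against 6.61, 5.18 and 14.8 in the biopsies (0.784 and 2.23 times the 12 h value). The markers and most members were thus all lower at 24 h than at 12 h, beside a median of 0.621 for the members. At 48 h, 25 of 32 members were further above their 12 h value than the leukocyte markers and 18 of 32 further than the lymphocyte markers. The measures differ, since members were taken over background and the markers were summed with no background subtracted. These differences were not tested. The part of infiltrating cell number in the human counts was not tested.

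**Figure D5:**
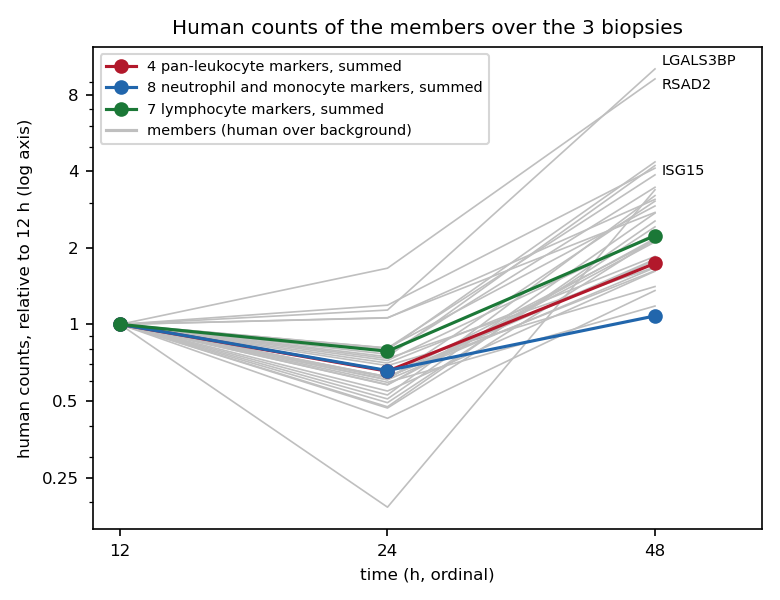
Human counts at 12, 24 and 48 h relative to 12 h on a log axis, for the members over background (grey lines, IFIT5 and HERC6 not drawn) and for the summed leukocyte (red), neutrophil and monocyte (blue) and lymphocyte markers (green). Most grey lines fall at 24 h, as the markers do, and at 48 h they spread on both sides of the lymphocyte markers (2.23), with LGALS3BP and RSAD2 highest.

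The type I interferons found by symbol were at or near 0 in these libraries. Pig interferons under other names would be missed, and the pig table held 0 of the type III symbols searched. The pig table held 4 type I interferon symbols, of which 2 were at 0 in every library and the summed counts were 6 and 5 in the controls against 8, 1 and 1 in the biopsies. The human table held 17, of which 16 were at 0, with sums of 0 and 0 in the controls against 2, 0 and 1 in the biopsies, and its 4 type III interferon symbols were at 0 throughout. A count of 0 allows up to 3 counts in a library. IFNG, the type II interferon of T and natural killer cells, had 3 and 3 pig counts in the controls against 12, 10 and 3 in the biopsies, and 0 and 0 human counts in the controls against 34, 16 and 56 in the biopsies. Of 5 markers listed for plasmacytoid dendritic cells, the specialised producers of type I interferon, the defining ones were at or near 0 in the human table: CLEC4C had 2 counts at 48 h and 0 elsewhere, and LILRA4 had 1 count at 12 h and 0 elsewhere. The other markers, which further cell types also express, were present. IL3RA had 0 and 0 human counts in the controls and then 42, 30 and 68, IRF8 had 18 and 18 and then 395, 228 and 594, and TCF4 had 1010 and 769 and then 1146, 1581 and 1719. IL3RA and IRF8 passed the test and TCF4 (0.11) did not.

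Of the other genes of the pathway, the receptors moved in the graft. The pig fit tested 5 of the list's receptor and interferon genes. IFNGR2 (log2 change 1.56), IFNAR1 (0.997), IL10RB (0.83) and IFNGR1 (0.76) rose, and IFNLR1, the specific chain of the type III receptor, fell by 1.05 (edgeR's quasi-likelihood test). Human-table counts were higher for 6 of 6 tested, where 19.3% of all genes were. IFNG, IFNAR2 and IL10RB were at 0 human counts in both controls and IFNAR1 and IFNGR1 had 1 count over the pair, so these genes passed the filter through the biopsies and that count is no support of its own. Of 15 signalling genes 3 rose in the pig table, IRF1 (1.04), STAT3 (0.71) and JAK1 (0.52), and 0 fell. The share that rose was near the 18.5% of all genes. Human-table counts were higher for 5 of the 15 (IRF8, IRF1, IRF5, STAT3 and JAK1), where 19.3% of all genes were, with no background subtracted. JAK1 changed by 0.50 there, close to its pig value, and its human to pig ratio did not pass (0.29, edgeR adjusted p = 0.0530). The ratio passed for IRF8 (4.25), IRF1 (1.44), IRF5 (1.27) and STAT3 (0.49, edgeR adjusted p = 0.0430).

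Of the nucleic acid sensing genes, 4 of 11 rose in the pig table, where 18.5% of all genes did. They were STING1 (2.06), the adaptor of DNA sensing, IKBKE (1.37), ZBP1 (0.84) and MYD88 (0.52). STING1 had 272 and 291 pig counts in the controls against 1605, 1299 and 1572 in the biopsies, without overlap. Human-table counts were higher for 10 of 13, where 19.3% of all genes were and where genes near 0 in the controls pass the filter through the biopsies. Among them were TLR8 (1 and 0 human counts in the controls, 523, 330 and 519 in the biopsies), AIM2 (0 and 0, then 12, 10 and 22), CGAS (1 and 2, then 59, 40 and 103), STING1 (22 and 22, then 324, 260 and 410) and TLR7 (22 and 26, then 214, 280 and 433).

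Of 17 other interferon-induced genes tested in the pig table, 11 rose, a share to be read against the 18.5% of all genes that rose. CXCL10, a chemokine for T cells, rose most (log2 change 3.41 ± 0.15, edgeR adjusted p = 0.000166). It was followed by PSMB9 (1.62), a subunit of the immunoproteasome, UBE2L6 (1.54), the conjugating enzyme for ISG15, TAP1 (1.48), a peptide transporter for class I antigen presentation, and SAMHD1 (1.19), a nucleotide hydrolase. CXCL10, PSMB9 and TAP1 also respond to type II interferon. Human-table counts were higher for 29 of 30 and lower for 0, with the same limit. OAS3 had 0 human counts in both controls and 108, 76 and 344 in the biopsies, and TRIM22 had 1 and 0 in the controls against 727, 395 and 1002 in the biopsies. APOBEC3G, TRIM5 and HELZ2 were also at 0 in both controls and reached 147, 89 and 102 human counts at 48 h.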

How the data were processed

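The authors deposited raw counts by gene symbol, 1 table for Sscrofa11 and 1 for hg38. The build hg38 is given per the submitters' processing notes. The aligner, counting tool, annotation release, strand setting and any competition between genomes are not given in the sources used here. Sex-linked symbols were removed first. Library totals are in the report, and floors cover counting error only, since without molecular identifiers reads may be copies of 1 molecule.

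Counts were fitted in R 4.3.3 with edgeR 4.0.16 (quasi-likelihood, robust, TMM, filterByExpr at counts of 10 per library and 15 in total) and Benjamini-Hochberg adjustment at 0.05 over all genes tested. DESeq2 1.42.0 was an alternative. The standard error is the absolute log2 change divided by the square root of F. The ratio fit used both columns of each library with the Sscrofa11 total as the size of both, without TMM, and library and table as terms. Predictions needed at least 10 pig counts over the controls. Fits were tested on simulated data. Other alternatives were other size factors, no filter, removal of mitochondrial genes and leaving out each library.

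The members and the pathway and marker lists were chosen with earlier results of these data known. Values in every library are given for members called in the graft fit or the ratio fit, and up to 5 called genes of each pathway list are named per table by size of change. All 34 pig members matched Ensembl symbols and 32 matched RefSeq, where 10 of the 38 overlap another gene. These are ISG15, IFIT1, IFIT2, IFIT3, OAS1, XAF1, STAT2, PARP9, DTX3L and ADAR. With the strand setting not given, the effect of the overlaps on their counts was not tested. Positions and sequences are not given. The result of 1 gene of the signalling list is not reported here.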

Additional observations from a re-analysis of the deposited data

Results flagged for a closer look

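The members whose level differed between the times of biopsy, by the test of the slope within the xenograft, are given here as values. In the pig table the log2 change per 24 h was 0.60 for IFI6, 0.75 for IFI44L, 0.90 for BST2 and 0.76 for LGALS3BP. In the human table it was 1.22 for IFI44L, 1.85 for RSAD2 and 1.64 for LGALS3BP. Each of these 7 slopes rests on 1 biopsy per time, and its test takes part of its spread from the control pair. IFI44L and LGALS3BP passed in both tables, whose columns come from the same libraries, so the pairs are not independent of each other.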

How the results depend on the processing

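Another set of size factors and removal of mitochondrial genes ended no call of a member in the fits in which they were run, while leaving out a library moved most counts. No paired analysis was possible because the control replicates are numbered but each biopsy is a single time point, so the numbers pair nothing. With each library left out in turn, members higher in the graft ranged from 3 to 16 (13 with all libraries) and members lower from 0 to 2 (0), and all graft genes ranged from 464 to 2634 higher (2332) and 727 to 2638 lower (2402). For the graft change per 24 h the ranges were 1 to 12 members higher (4), 0 to 3 lower (0), and 349 to 1724 genes higher (423) and 83 to 1030 lower (124). For the human table they were 18 to 34 members higher (33), with 1550 to 3452 genes higher (3545) and 1316 to 2840 lower (2915). The human change per 24 h gave 0 to 27 members higher (3), 36 to 723 genes higher (170) and 2 to 248 lower (36), and without the filter 16 members, 598 genes higher and 190 lower. The ratio gave 0 to 26 members higher (19), 1 to 2491 genes higher (2480) and 0 to 31 lower (28), and with own totals and TMM 1200 genes higher and 958 lower.

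Signs turned for IRF9 in the graft without control replicate 2 (0.33, with -1.06 to 0.33 over the libraries left out), for IFI44L (-0.23, range -0.23 to 0.36) and RSAD2 (-0.15, range -0.15 to 0.49) in the graft and LGALS3BP (-0.53, range -0.53 to 0.93) in the human table without the 48 h biopsy, and for the ratios of IFIT5 (-0.17) and SAMD9 (-0.049) with own totals and TMM. The median human excess in CPM (1.55, 0.951 and 4.34 at 12, 24 and 48 h) was 0.757 at 24 h by the ratio of control replicate 1, and 1.82 at 12 h and 1.21 at 24 h by that of control replicate 2. Without mitochondrial genes it was 1.76, 1.11 and 4.93. The causes were not tested, beyond the fewer libraries in each fit. Depth limits ISG20, OASL and IRF9, which had few counts in the pig table, and USP18 in the human table. One biopsy per time, from a single transplant, leaves time and biopsy site confounded.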
